A study of Mus musculus with 9 samples.

Results

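Fn1, Postn, Tnc, Sparc, Thbs1, Thbs2, Tgfbi, Fap, Cthrc1 and Vcan were followed in iris RNA after corneal alkali injury (CAI). These 10 genes encode matricellular proteins and markers of activated fibroblasts. They were chosen by gene symbol from the 18349 genes listed in the count data, and all 10 were among the 15010 genes with enough counts to be tested. The data were 9 RNA-Seq libraries from C57BL/6J mice of both sexes. Each of the 3 groups had 3 libraries, each made from a pool of 3 irises. Sham VEGFR3 fl/fl mice received PBS on the cornea at week 6. Injured VEGFR3 fl/fl mice received sodium hydroxide instead (0.5 μL at 1 M, left for 60 seconds). Injured VEGFR3 iLECko mice had the same injury and carried floxed VEGFR3 together with Prox1-CreERT2, a tamoxifen-inducible Cre under the promoter of Prox1. Tamoxifen was given at 80 mg/kg on days 13 to 17, also to the VEGFR3 fl/fl littermates, which the labels call WT, and irises were collected at week 10. Cre under Prox1 limits deletion to Prox1+ cells such as lymphatic endothelial cells, whereas the RNA came from all cells of the iris.

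Matricellular proteins are secreted into the extracellular matrix, where they change how cells attach, migrate and respond to growth factors rather than bear load themselves. Most are sparse in resting adult tissue and are made by fibroblasts, and in part by macrophages and endothelial cells, during wound repair and fibrosis. Fibronectin (Fn1) is the scaffold on which collagen, tenascin-C (Tnc) and periostin (Postn) assemble, and integrins are the main receptors of these proteins.

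The genes lie on 8 chromosomes (coordinates of GRCm38.p6 from RefSeq). Fn1 is at chr1:71585473-71653280, Thbs1 at chr2:118111876-118127133, Fap at chr2:62500936-62575509, Postn at chr3:54359267-54391041 and Tnc at chr4:63959785-64047015. Sparc is at chr11:55394159-55420080, Tgfbi at chr13:56609586-56639359, Vcan at chr13:89655309-89743027, Cthrc1 at chr15:39076932-39087121 and Thbs2 at chr17:14665500-14694262. RefSeq promoter windows, from 250 bases before to 50 bases after a start, were matched for 6 of the 10 genes. Fn1, Thbs1, Fap and Cthrc1 were not matched. The 150 bases upstream of a start are shown for 3 genes that rose after CAI and hold TATAAA (Postn, Tnc and Thbs2), and for Vcan, which was not called in any comparison. Each is read 5′ to 3′ on the strand of the gene, and capitals mark TATAAA or the short SMAD-binding element CAGAC on either strand (as TTTATA or GTCTG on the other).
Postn, chr3:54360957-54361106, + strand: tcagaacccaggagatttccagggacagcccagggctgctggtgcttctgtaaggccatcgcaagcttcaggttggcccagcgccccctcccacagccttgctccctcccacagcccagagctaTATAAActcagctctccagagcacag
Tnc, chr4:64047016-64047165, - strand: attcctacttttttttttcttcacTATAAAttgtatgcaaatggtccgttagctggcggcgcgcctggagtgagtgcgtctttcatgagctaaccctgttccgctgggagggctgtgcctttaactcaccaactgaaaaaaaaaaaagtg
Thbs2, chr17:14694263-14694412, - strand: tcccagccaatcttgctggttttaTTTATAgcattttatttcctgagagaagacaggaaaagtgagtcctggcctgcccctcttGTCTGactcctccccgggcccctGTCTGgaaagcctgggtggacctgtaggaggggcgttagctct
Vcan, chr13:89742513-89742662, - strand: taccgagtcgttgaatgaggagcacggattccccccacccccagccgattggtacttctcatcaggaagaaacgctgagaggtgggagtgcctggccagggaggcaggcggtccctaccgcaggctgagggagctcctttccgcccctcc
In the windows shown, TATAAA begins 26 bases before the start in Postn and 126 bases before it in Tnc. In Thbs2 the match is on the other strand, read as TTTATA from 126 bases before the start. Postn and Tnc each have another window. That of Postn, at the gene start given above, held no TATAAA, and in that of Tnc it begins 205 bases before the start. Counting any window of a gene and either strand, TATAAA was found in 3 of the 6 genes (50%) and in 15.7% of all 27025 genes of the promoter table. CAGAC was found in 5 of 6 genes (83.3%) against 53.2% of all genes, so it is common in any window of this length. The full SMAD box GTCTAGAC was in 0 of 6 (0.248% of all genes), as was the AP-1 site TGACTCA, read as TGAGTCA on the other strand (5.95% of all genes). The Vcan window held none of these letters. These matches describe sequence and were not tested for use in the iris.

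Library totals ranged from 16617187 to 18306359 estimated counts, so that even the lowest value of the 10 genes in a library (216 counts, Tnc in Sham) was far above 0. Iris identity was checked first. Pigment cell markers summed to 27250 to 29090 CPM (counts scaled to library size by TMM) in Sham and to 3325 to 7010 CPM in the 6 injured libraries, with Dct the most abundant, and iris smooth muscle markers were present in every library. Flt4, which encodes VEGFR3, had 282, 237 and 265 counts in Sham, 277, 353 and 400 after CAI in VEGFR3 fl/fl, and the libraries labelled VEGFR3 iLECko had 478, 370 and 476, so it was not lower there (log2 difference 0.33 against injured VEGFR3 fl/fl, edgeR adjusted p = 0.20). The paper reports from Lyve1 staining of iris whole mounts that lymphatic growth after CAI was blocked in VEGFR3 iLECko mice. Y-linked genes summed to 51.1 to 167 CPM in Sham and to 151 and 136 CPM in injured VEGFR3 fl/fl replicates 1 and 2, but to 0.804 CPM in replicate 3 and to 0.736 to 1.11 CPM in the VEGFR3 iLECko libraries, so the sex of the pooled mice differed partly along with genotype. Injured VEGFR3 fl/fl replicate 1 lay farthest from the other libraries of its group (0.70 log2 units, root mean square over all genes). It also held 116.8 CPM of corneal stroma markers, nearly all Aldh3a1, and 114 CPM of lymphatic markers, mostly Ccl21a (a gene with near-identical copies), against 1.69 to 10.3 and 18.9 to 32.7 CPM in the other 8 libraries. Kera, the other corneal stroma marker, had at most 3 counts in any library. The part of these differences in the results below was not tested, except that values without that library are given where they matter.

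The first comparison asked what CAI changes in VEGFR3 fl/fl irises. Of the 10 genes, 9 rose in injured VEGFR3 fl/fl irises and Vcan was not called, where a call means a change of more than 1.5-fold with a Benjamini-Hochberg adjusted p under 0.05 in the quasi-likelihood test of edgeR. Over all genes tested, 22.1% rose and 17.5% fell by the same rule. The 3 injured libraries lay above all 3 Sham libraries for the same 9 genes, as was so for 33.9% of all genes. Without injured VEGFR3 fl/fl replicate 1 the same count, 9, was called. The median log2 change of the 10 genes was 2.98 and that of all genes 0.01. Together the 10 genes took 0.318 to 0.332% of all counts in Sham, 1.21 to 1.51% after CAI in VEGFR3 fl/fl and 1.37 to 1.59% in VEGFR3 iLECko irises. In RNA of whole irises, more cells of a type and more RNA per cell cannot be told apart.

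**Figure D1:**
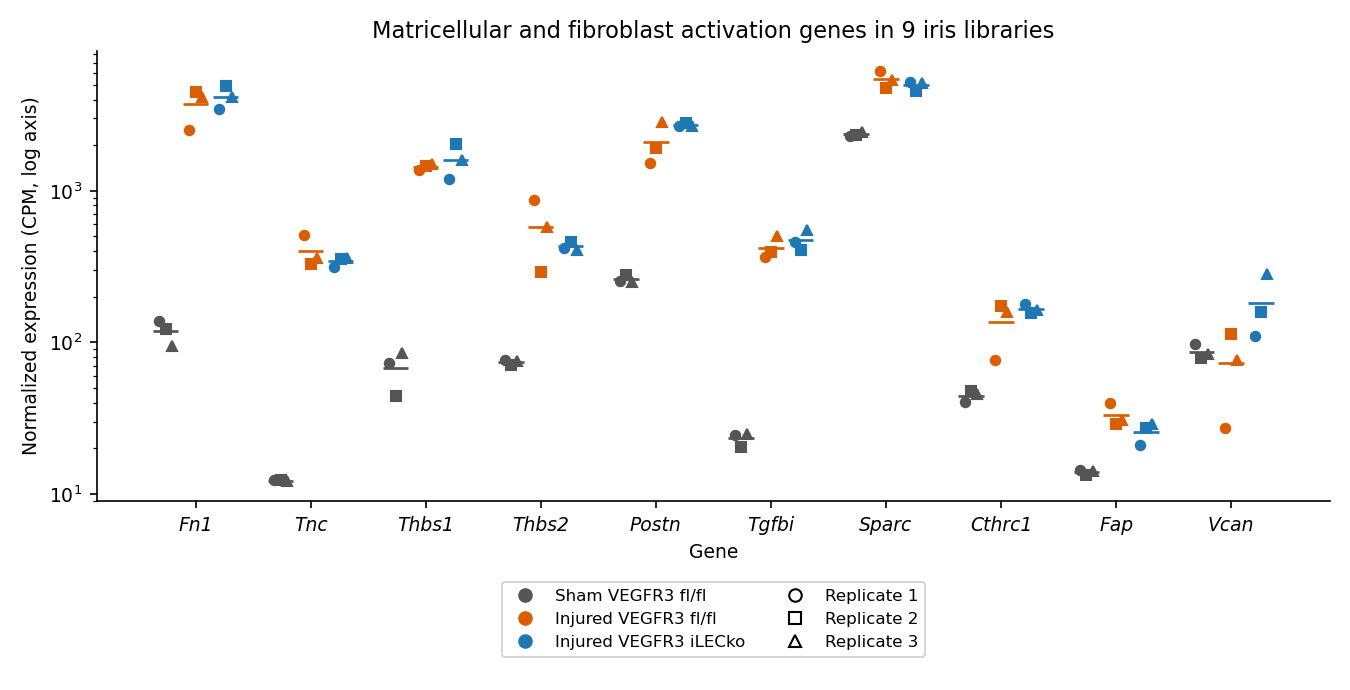
Normalized expression (CPM, log axis) of the 10 genes in each of the 9 libraries, with colours for groups, symbols for replicates and bars for group means. For 9 genes every injured library lies above every Sham library, whereas Vcan in injured VEGFR3 fl/fl spans the Sham values.

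Fn1, the fibronectin scaffold, had 2483, 2166 and 1671 counts in the Sham libraries and 41635, 77123 and 72235 in injured VEGFR3 fl/fl. All injured values were far above the Sham values, with replicate 1 the lowest of the 3. The mean rose from 118 ± 22.0 to 3730 ± 1058 CPM (SD, n = 3), a log2 change of 4.98 (SE 0.28, adjusted p = 9.07e-07) or 31.6-fold. Tnc encodes a large glycoprotein that loosens cell adhesion to fibronectin and had 222, 217 and 216 counts in Sham and 8396, 5633 and 6231 after CAI. It was the least expressed of the 10 genes in Sham and rose by 5.03 on the log2 scale (SE 0.18, adjusted p = 8.29e-08), 32.6-fold. By size of its change it ranked 245 and Fn1 249 among the 15010 genes.

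Both thrombospondins rose, though by unequal amounts. Thrombospondin-1 (Thbs1), an activator of latent TGF-β that binds CD47 and CD36, had 1313, 788 and 1512 counts in Sham and 22705, 24720 and 26079 in injured VEGFR3 fl/fl. The injured libraries were close to each other, and the log2 change was 4.42 (SE 0.28, adjusted p = 1.9e-06). Thrombospondin-2 (Thbs2), a related inhibitor of angiogenesis made mainly by fibroblasts, went from 1372, 1260 and 1340 counts to 14300, 4974 and 9978. Its injured libraries differed by 2.98-fold among themselves, with replicate 1 the highest, and its log2 change was 2.96 (SE 0.33, adjusted p = 5.76e-05), or 2.54 without replicate 1. Per length, in approximate TPM (counts scaled to transcript length and library), the ratio of Thbs1 to Thbs2 was 0.965, 0.630 and 1.14 in Sham and 1.60, 5.01 and 2.64 in injured VEGFR3 fl/fl. The ratio was thus higher in each injured library, by 1.64 on the log2 scale (two-sided exact permutation test, p = 0.1, the smallest possible with 3 against 3).

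Postn and Tgfbi encode the FAS1-domain proteins periostin, which promotes collagen cross-linking, and TGF-β-induced protein, which is abundant in the cornea and mutated in corneal dystrophies. Postn had 4600, 4925 and 4446 counts in Sham and 25039, 32912 and 49228 in injured VEGFR3 fl/fl. The highest injured value was 1.86-fold the lowest in CPM, and the log2 change was 3.00 (SE 0.21, adjusted p = 3.25e-06). Tgfbi went from 441, 363 and 442 counts to 6047, 6690 and 8704, with a log2 change of 4.17 (SE 0.17, adjusted p = 1.81e-07). Their ratio per length (Tgfbi to Postn) was higher in every injured library, at 0.167, 0.128 and 0.173 in Sham and 0.420, 0.354 and 0.308 after CAI (two-sided exact permutation p = 0.1, the smallest possible). Fn1 also gained on Postn, from ratios of 0.339, 0.276 and 0.236 to 1.04, 1.47 and 0.922 (exact permutation p = 0.1).

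Sparc, Fap and Cthrc1 rose less. Sparc (osteonectin) is a collagen-binding protein needed for fibril assembly. It was already the most abundant of the 10 genes in Sham, with 41331, 41429 and 43303 counts, and had 101347, 81354 and 94443 in injured VEGFR3 fl/fl (log2 change 1.21, SE 0.12, adjusted p = 2.78e-05). Fap encodes fibroblast activation protein, a cell surface serine protease used as a marker of activated fibroblasts. Its counts were 260, 237 and 250 in Sham and 652, 495 and 537 after CAI, without overlap, a 2.37-fold rise (log2 change 1.25, SE 0.15, adjusted p = 8.99e-05). Cthrc1, a secreted protein of fibroblasts in repairing tissue, had 730, 841 and 811 counts in Sham. The injured libraries held 1257, 2979 and 2760, so replicate 1 stood well below the other 2, and the log2 change was 1.61 (SE 0.26, adjusted p = 0.000557).

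Vcan, the hyaluronan-binding proteoglycan versican, was the exception. Sham libraries had 1749, 1395 and 1488 counts, and those of injured VEGFR3 fl/fl had 451, 1947 and 1328. Replicate 2 lay above all Sham libraries and replicates 1 and 3 below them, a 4.16-fold range in CPM. The log2 difference was -0.25 (SE 0.47, 95% confidence interval -1.31 to 0.80, adjusted p = 0.661). It was 0.14 without replicate 1 and -0.74 without replicate 2, so a direction was not detectable with these libraries.

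**Figure D2:**
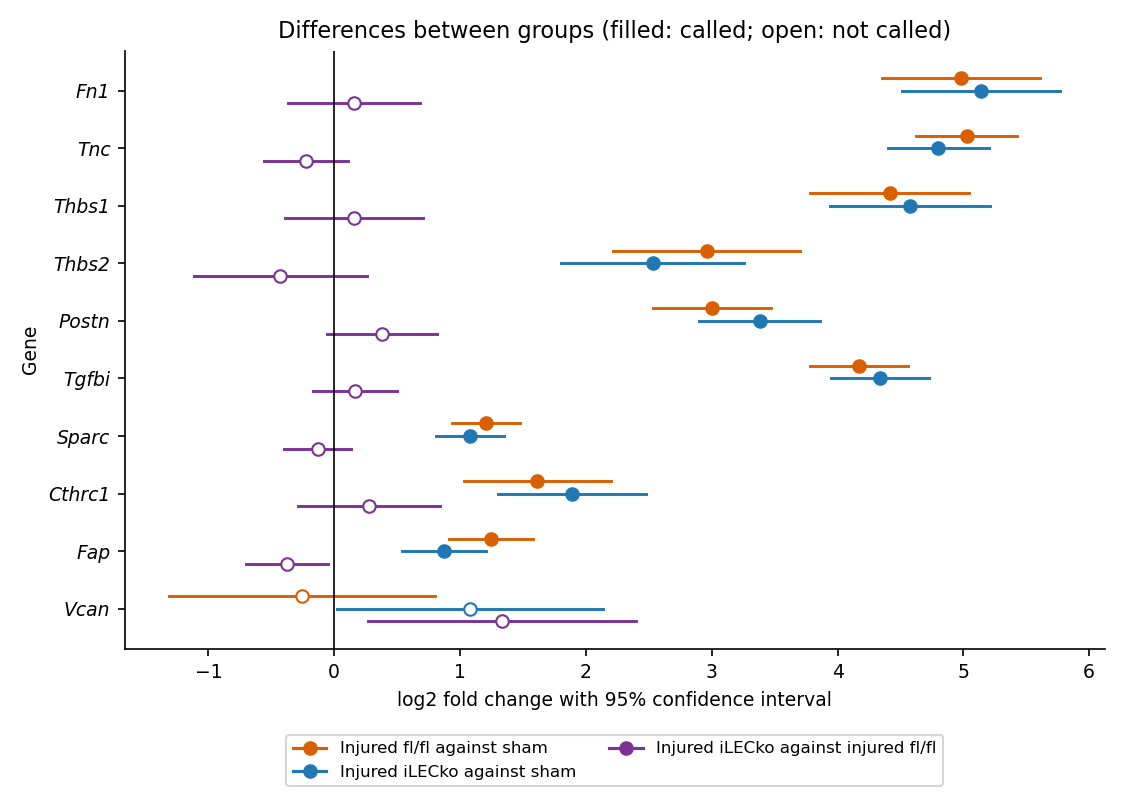
log2 fold changes of the 10 genes in the 3 comparisons (points), with 95% confidence intervals from edgeR (lines). Filled points were called. The intervals of both injured groups against Sham lie above 0 for 9 genes. That of Vcan spans 0 in injured VEGFR3 fl/fl and lies above 0 in VEGFR3 iLECko, where Vcan was not called. No gene was called between the injured groups.

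The same 9 genes rose in injured VEGFR3 iLECko against Sham, a comparison that uses the same Sham libraries. Over all genes, 19.7% rose and 15.0% fell. The log2 changes were 5.14 for Fn1, 4.80 for Tnc, 4.57 for Thbs1, 4.33 for Tgfbi, 3.38 for Postn, 2.53 for Thbs2, 1.89 for Cthrc1, 1.08 for Sparc and 0.87 for Fap. Their adjusted p-values ran from 1.52e-07 for Tnc to 0.000971 for Fap. For all 10 genes, Vcan included, the VEGFR3 iLECko libraries lay above the Sham libraries, as they did for 33.3% of all genes. Vcan had 1881, 2786 and 4878 counts there, a log2 difference of 1.08 from Sham (SE 0.47, adjusted p = 0.0782). Over the alternatives this difference ran from 0.63 to 1.34, with adjusted p from 0.0128 to 0.415. It was called when only the 6 libraries compared were fitted (adjusted p = 0.0128), when injured VEGFR3 fl/fl replicate 1 was left out (0.0145) and without VEGFR3 iLECko replicate 1 (0.0493), and in no other alternative. Without VEGFR3 iLECko replicate 3, its highest library, it came to 0.63 (adjusted p = 0.299).

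The comparison of the 2 injured groups asked what the VEGFR3 iLECko genotype changes after CAI. By edgeR 0 of the 10 genes were called, where it called 1.04% of all genes (0.573% up and 0.466% down). DESeq2 also called 0 of the 10, where it called 4.40% of all genes (2.43% up and 1.97% down). The number of all genes called by edgeR, 156, depended on single libraries. It was 0 without VEGFR3 iLECko replicate 2 and 281 without injured VEGFR3 fl/fl replicate 3, and 0 when only the 6 libraries compared were fitted. At an unadjusted p under 0.05 there were 2 of the 10 genes, Vcan and Fap, against 24.5% of all genes. Vcan differed most, from the 451, 1947 and 1328 counts given above to 1881, 2786 and 4878 in injured VEGFR3 iLECko. The groups overlapped, since replicate 1 of the second lay within the first. The log2 difference was 1.33 (SE 0.47, 95% confidence interval 0.27 to 2.40, unadjusted p = 0.0197, adjusted p = 0.142) and stayed between 0.89 and 1.82 over the alternatives, with adjusted p from 0.0809 to 0.689. Without injured VEGFR3 fl/fl replicate 1 it was 0.95.

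Fap had 359, 477 and 499 counts in injured VEGFR3 iLECko against 652, 495 and 537. In CPM every VEGFR3 iLECko library was lower, and Fap alone of the 10 genes did not overlap between the injured groups, against 26.7% of all genes. The margin was narrow, with 28.7 CPM in VEGFR3 iLECko replicate 3 and 29.0 CPM in injured VEGFR3 fl/fl replicate 2. In approximate TPM the same libraries had 25.9 and 24.5, so the groups overlapped. The log2 difference of Fap was -0.37 (SE 0.14, unadjusted p = 0.0295, adjusted p = 0.165). For Postn the VEGFR3 iLECko libraries held 45725, 49427 and 46673 counts, near the highest of the injured VEGFR3 fl/fl libraries (replicate 3). That gave a log2 difference of 0.38 (95% confidence interval -0.06 to 0.81, adjusted p = 0.252). Without replicate 3 Postn was called (0.66, adjusted p = 0.0422), whereas with the Y-linked level as a covariate its difference was -0.03. The other 7 genes had log2 differences between -0.43 (Thbs2) and 0.28 (Cthrc1). Thbs2, at -0.43 (95% confidence interval -1.12 to 0.26), came to -0.01 without injured VEGFR3 fl/fl replicate 1. For Sparc the interval was -0.39 to 0.14, for Tgfbi -0.17 to 0.50 and for Tnc -0.56 to 0.11, so differences beyond these bounds were not seen, while smaller ones could not be detected with 3 libraries a group.

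**Figure D3:**
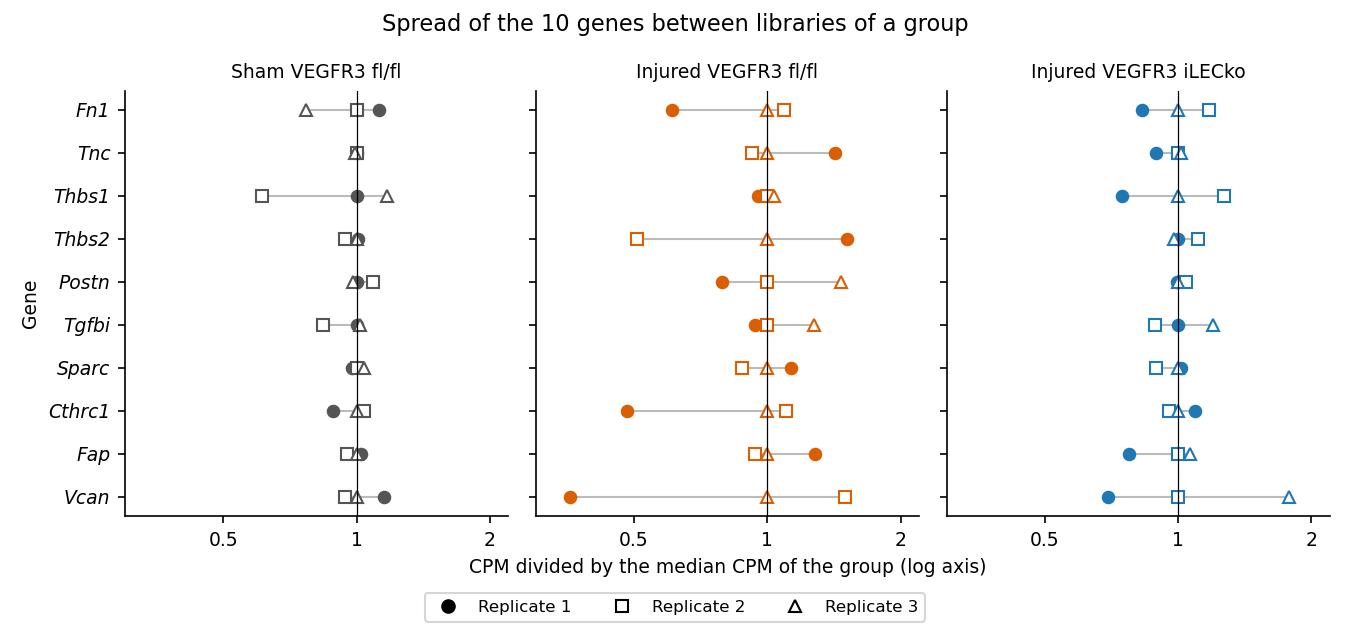
CPM of each gene in each library divided by the median of its group (log axis), with filled symbols for replicate 1. In injured VEGFR3 fl/fl, replicate 1 is lowest for Vcan, Cthrc1, Fn1 and Postn and highest for Thbs2, Tnc, Fap and Sparc.

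The spread between libraries of a group was itself uneven. In injured VEGFR3 fl/fl, the SD of log2 CPM was 1.06 for Vcan, 0.80 for Thbs2 and 0.65 for Cthrc1, larger than in 96.0%, 92.9% and 89.9% of all genes, where the median SD was 0.17. Replicate 1 of this group was the lowest of the 3 for 6 of the 10 genes and the highest for the other 4. For Thbs1, by contrast, it differed little from the others, and the SD was 0.06. In injured VEGFR3 iLECko, Vcan again varied most (SD 0.68), whereas Postn varied less than most genes (SD 0.04, larger than in 6.47% of genes). In Sham, the values of Tnc agreed within 1.01-fold and those of Thbs1 within 1.91-fold.

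Per length, Sparc had the highest level in every group, at 2932 ± 133 TPM (SD, n = 3) in Sham, 5490 ± 407 after CAI in VEGFR3 fl/fl and 5592 ± 244 in VEGFR3 iLECko irises. Postn and Cthrc1 followed in Sham (143 ± 4.29 and 109 ± 5.41 TPM). Fn1, Thbs2, Thbs1, Tgfbi and Vcan came next at 20.0 to 40.7 TPM, each overlapping its neighbour, and then Fap (13.9 TPM) and Tnc (4.93 TPM) without overlap. In injured VEGFR3 fl/fl the order became Sparc, then Fn1 and Postn (1061 ± 363 and 946 ± 356 TPM, overlapping), Thbs1, Tgfbi, Cthrc1, Thbs2 and Tnc (129 ± 20.6 TPM). Thbs1, Cthrc1, Thbs2 and Tnc each overlapped the gene before it in this order. Fap and Vcan were last at 26.7 ± 2.42 and 14.0 ± 8.83 TPM, without overlap. Thus Tnc moved from the bottom to a level above Fap and Vcan, and Cthrc1 came behind Fn1, Thbs1 and Tgfbi in mean level though it had risen. By median, Cthrc1 (332.5 TPM) lay above Tgfbi (316.3 TPM) in injured VEGFR3 fl/fl. In injured VEGFR3 iLECko the mean of Postn lay above that of Fn1 (1347 ± 76.8 and 1299 ± 266 TPM) and that of Vcan above Fap (38.2 ± 18.5 and 23.1 ± 4.19 TPM), each pair overlapping.

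Relatives of the 10 genes did not all move with them. Among 22 other matricellular genes, 12 rose, 5 fell and 5 were not called in injured VEGFR3 fl/fl against Sham. Over all genes 22.1% rose and 17.5% fell. The median log2 change of the 22 was 1.28. Of the tenascins, Tnn rose (log2 change 4.47, adjusted p = 0.0127), though its injured libraries held 44, 179 and 1465 counts. Tnxb was at -0.03 (adjusted p = 0.846). Tenascin-R (Tnr), best known from nervous tissue, fell from 4375, 3318 and 4092 counts to 913, 1092 and 1648 (log2 change -1.63, adjusted p = 0.0008). The ratio of Tnc to Tnr per length was 0.0871, 0.112 and 0.0906 in Sham and 15.8, 8.86 and 6.49 after CAI, a log2 difference of 6.66 (exact permutation p = 0.1, the smallest possible). Of the thrombospondins, Thbs3 rose by 2.44 (adjusted p = 6.77e-07), with similar values in the 3 injured libraries. Comp, the cartilage oligomeric matrix protein, rose from 51, 45 and 60 counts to 4312, 173 and 361 (log2 change 5.06, adjusted p = 0.00495). Its change was 2.40 without replicate 1. Thbs4 was high in replicate 1 alone (853 counts against 35 and 115) and was not called (log2 difference 1.04, adjusted p = 0.399, and -1.18 without replicate 1).

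In the SPARC family, Smoc1, Smoc2 and Fstl1 rose with Sparc (log2 changes 2.38, 2.85 and 0.85). Sparcl1, its closest relative, had 9413, 9791 and 9451 counts in Sham and 3543, 8470 and 8092 after CAI, which was not called (log2 difference -0.45, adjusted p = 0.159). The testicans Spock1, Spock2 and Spock3 fell by 2.23, 1.79 and 1.62 on the log2 scale. CCN proteins are matricellular signals outside these families, and 5 of their 6 genes rose, against 22.1% of all genes. Ccn5 rose most, from 8, 7 and 11 counts to 3069, 1095 and 1505 (log2 change 7.83, adjusted p = 4.35e-06), followed by Ccn4 at 4.35. Ccn6 was not called (0.61, adjusted p = 0.187). Between the injured groups edgeR called 0 of the 22 other matricellular genes, with 7 at an unadjusted p under 0.05 (24.5% of all genes). DESeq2 called 3 of them, Spock1 up (log2 difference 0.77, adjusted p = 0.0106) and Ccn5 and Comp down (-1.60 and -3.52, adjusted p = 0.000628 and 0.0169). Over all genes it called 2.43% up and 1.97% down. By edgeR Ccn5 and Comp were called without injured VEGFR3 fl/fl replicate 2, Ccn4 (0.94) without replicate 3 of that group and Spock1 without VEGFR3 iLECko replicate 3. Without injured VEGFR3 fl/fl replicate 1, the highest of its group for Ccn5 and Comp, edgeR called 0 of the 22.

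**Figure D4:**
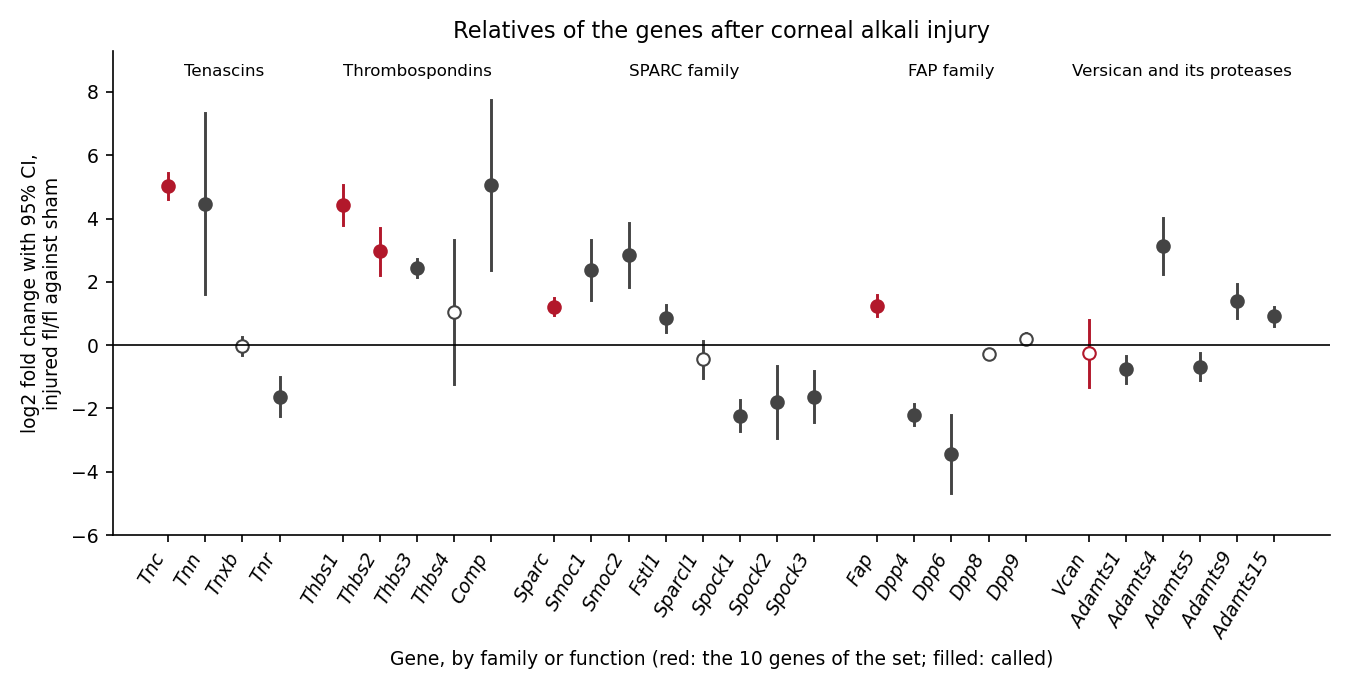
log2 fold changes with 95% confidence intervals in injured VEGFR3 fl/fl against Sham for 5 of the genes' families or partner groups, with the 10 genes themselves in red and filled points for calls. Tnr, the Spock genes, Dpp4 and Dpp6 lie below 0 while Tnc, Sparc and Fap lie above it.

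Fap and Dpp4 are close relatives among the dipeptidyl peptidases and lie 88620 bases apart on chromosome 2, with Gcg and Gm13561 between them. They moved in opposite directions. Dpp4 fell from 2525, 2407 and 2511 counts to 509, 472 and 568 (log2 change -2.19, SE 0.15, adjusted p = 3.08e-06), with no overlap. Per length, Fap was at 0.189, 0.181 and 0.183 of Dpp4 in Sham, at 2.35, 1.93 and 1.74 after CAI in VEGFR3 fl/fl, and at 0.945, 1.31 and 2.03 in VEGFR3 iLECko irises. The rise of the ratio in injured VEGFR3 fl/fl was 3.43 on the log2 scale (exact permutation p = 0.1, the smallest possible), and the injured groups overlapped (p = 0.3). Dpp6 fell as well (log2 change -3.43, adjusted p = 0.000519). Of the 4 tested relatives of Fap, 2 fell and 0 rose, against 17.5% and 22.1% of all genes. Dpp8 and Dpp9 changed by less than 1.5-fold.

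Genes that act on versican and hyaluronan, its binding partner, also changed after CAI. Of 13 tested, 8 rose and 3 fell in injured VEGFR3 fl/fl against Sham (22.1% and 17.5% of all genes). Their median log2 change was 1.41. Among the rising genes were the versican-cleaving protease Adamts4 (78, 71 and 96 counts in Sham and 361, 1100 and 593 after CAI, log2 change 3.13), the hyaluronan synthase Has2 (2.88) and Tnfaip6, a hyaluronan-binding protein of inflammation (2.98). Acan, which encodes the related proteoglycan aggrecan, had 1, 0 and 0 counts in Sham and 128, 46 and 251 after CAI, at least 49.3-fold higher when Sham is set to 3 counts per library. Adamts1, Adamts5 and Has3 fell by 0.77, 0.68 and 1.05 on the log2 scale, of which Adamts5 alone was called without injured VEGFR3 fl/fl replicate 1. Between the injured groups edgeR called 0 of the 13, and 5 had an unadjusted p under 0.05 (24.5% of all genes). Adamts4, at 2028, 1400 and 1774 counts in VEGFR3 iLECko, lay above all injured VEGFR3 fl/fl libraries there (log2 difference 1.32, adjusted p = 0.072), as did Has2 (0.89, adjusted p = 0.152) and Tnfaip6 (1.08, adjusted p = 0.0591). DESeq2 called 2 genes of the list there, Adamts4 and Tnfaip6 (adjusted p = 0.00248 and 0.00535), both up, against 2.43% of all genes. Without injured VEGFR3 fl/fl replicate 2, edgeR called Adamts4 and Adamts1 up (log2 differences 1.83 and 0.80, adjusted p = 0.0245 and 0.0361). With the Y-linked covariate, a replicate block or only the 6 libraries compared, edgeR called 0 of the list.

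Receptors of these proteins changed as well. Of 15 tested, 10 rose and 2 fell in injured VEGFR3 fl/fl (22.1% and 17.5% of all genes), with a median log2 change of 0.91. The β3 integrin Itgb3 rose from 30, 27 and 31 counts to 343, 696 and 301 (log2 change 3.99, adjusted p = 4.09e-05). The α5 chain of the fibronectin receptor (Itga5) rose by 2.02 and Itgb1 by 0.82. Itgav, the αv chain that pairs with β3, was at 0.14 (adjusted p = 0.345, and -0.03 when only library size was scaled). The thrombospondin receptor Cd36 rose by 3.32, while Cd47 rose by 0.59, near the fold threshold and below it under upper quartile scaling or library size alone. Itga8 and Itga9, whose integrins bind tenascin-C among other ligands, fell by 1.89 and 1.26. Between the injured groups neither edgeR nor DESeq2 called any of the 15, with 2 at an unadjusted p under 0.05 by edgeR (24.5% of all genes).

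Of 12 fibroblast genes 9 rose and 0 fell in injured VEGFR3 fl/fl against Sham (22.1% and 17.5% of all genes). Their median log2 change was 2.57. Once replicate 1 of injured VEGFR3 fl/fl was left out, 8 rose and 1 fell. Col1a1 rose from 5601, 6665 and 5773 counts to 89387, 75913 and 98083 (log2 change 3.94, adjusted p = 5.07e-07), Col1a2 by 3.74 and Thy1 by 4.32. Pdgfra, a general fibroblast marker, was at 0.16 (adjusted p = 0.567, and -0.03 when only library size was scaled). Dcn had 79389 counts in injured VEGFR3 fl/fl replicate 1 against 17541 and 33065 in the others, and its log2 difference from Sham was 0.21 with that library and -0.61 without it. Of 9 genes of contractile and myofibroblast cells 6 fell and 1 rose, against 17.5% and 22.1% of all genes. Among those that fell were Acta2 (log2 change -1.66), Cnn1 (-2.77) and Myh11 (-3.34), which iris muscle also expresses. The 1 that rose was Lrrc15, a marker of activated fibroblasts, from 17, 22 and 10 counts to 245, 873 and 1018 (log2 change 5.49). Between the injured groups 0 of the 12 and 0 of the 9 were called by edgeR, with 4 and 1 at an unadjusted p under 0.05 (24.5% of all genes). DESeq2 called 1 fibroblast gene, Mfap5, a microfibril protein, which was lower in VEGFR3 iLECko irises (log2 difference -1.51, adjusted p = 0.00118). Over all genes it called 1.97% lower. Mfap5 was also called lower by edgeR without replicate 1, 2 or 3 of injured VEGFR3 fl/fl (-0.91, -1.74 and -1.75).

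TGF-β is a main inducer of fibronectin, periostin and Tgfbi in fibroblasts. Of 10 genes of this pathway 5 rose and 1 fell in injured VEGFR3 fl/fl (22.1% and 17.5% of all genes). Their median log2 change was 0.78. The ligands Tgfb1 and Tgfb3 rose by 2.28 and 1.83 and Tgfb2 fell by 0.74, and the receptors Tgfbr1 and Tgfbr2 rose by 1.02 and 1.34. Tgfb2, which had 6908, 6665 and 6761 counts in Sham and 3159, 4066 and 4368 after CAI, had 5288, 6064 and 5961 in VEGFR3 iLECko irises, above all injured VEGFR3 fl/fl libraries (log2 difference 0.55, SE 0.10, adjusted p = 0.0421), a change below the fold threshold. Between the injured groups edgeR called 0 of the 10 genes of this list, with 6 at an unadjusted p under 0.05 (24.5% of all genes). DESeq2 also called 0, and Tgfb2 was called without injured VEGFR3 fl/fl replicate 3 (0.63, adjusted p = 0.0357).

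Markers of other cells differed between groups too. Macrophage markers summed to 281 to 288 CPM in Sham, 2067 to 2135 CPM after CAI in VEGFR3 fl/fl and 1310 to 1463 CPM in VEGFR3 iLECko irises, with Cd68 the most abundant in the injured groups. All 7 rose after CAI, as did 22.1% of all genes. Between the injured groups edgeR called 3 of the 7 lower in VEGFR3 iLECko irises, against 0.466% of all genes. It called 0 of the 10 matricellular and fibroblast genes there. With only the 6 libraries compared, or without VEGFR3 iLECko replicate 2, it called 0 of all genes, and with the Y-linked level as a covariate 2. Blood endothelial markers summed to 264 to 279 CPM in Sham and to 757 to 1057 CPM in the injured libraries, and platelet markers, led by Pf4, to 14.7 to 18.4 and 23.2 to 114 CPM. Of 3 platelet markers tested, 1 was called up in injured VEGFR3 fl/fl against Sham (22.1% of all genes). Mean Pf4 was 12.6 CPM in Sham, 51.9 in injured VEGFR3 fl/fl and 54.9 in VEGFR3 iLECko. Ppbp was at 0.505, 1.33 and 2.53 CPM, whereas Itga2b stayed at 3.39, 3.75 and 3.20 CPM. Thbs1 is abundant in platelets and Fn1 in macrophages. Bone and mineralizing cell markers, led by Alpl, summed to 148 to 163 CPM in Sham with Ibsp and Dmp1 at 0. They came to 37.7, 74.7 and 287 CPM after CAI in VEGFR3 fl/fl and to 310, 123 and 82.3 CPM in VEGFR3 iLECko irises, the same order of libraries as for Tnn (44, 179 and 1465, then 1725, 605 and 422 counts). The list was mixed. Mean Alpl was 145 CPM in Sham, 64.7 in injured VEGFR3 fl/fl and 105 in VEGFR3 iLECko, whereas Runx2 was at 4.51, 33.7 and 42.1 CPM. Of 6 tested, 3 were called up and 1 down in injured VEGFR3 fl/fl against Sham (22.1% and 17.5% of all genes). T cell markers, led by Cd4, summed to 3.66 to 4.10 CPM in Sham, 29.5 to 49.0 in injured VEGFR3 fl/fl and 18.0 to 37.6 in VEGFR3 iLECko. Means in the 2 injured groups were 35.0 and 25.4 CPM for Cd4, 1.57 and 0.478 for Cd3e, 1.19 and 0.633 for Cd3d, and 1.14 and 1.16 for Cd8a. Between them edgeR called 0 of the 4, and 2 lay lower in VEGFR3 iLECko without overlap (26.7% of all genes did not overlap). Lens markers summed to 2.08 to 3.50 CPM in Sham and 10.1 to 52.3 CPM in the injured libraries. Striated muscle markers were at 55.6 to 67.9 CPM in Sham and at most 2.97 CPM after CAI, and surface epithelial markers were at 2.48 to 42.2 CPM in Sham and at most 2.64 CPM after CAI. The haemoglobin genes Hbb-bs and Hba-a1 summed to 364 to 784 CPM in Sham, 141.5 to 343 CPM after CAI in VEGFR3 fl/fl and 186 to 689 CPM in VEGFR3 iLECko irises. Neither was called after CAI, though both lay lower without overlap in injured VEGFR3 fl/fl (log2 differences -1.33 and -1.22, adjusted p = 0.0643 and 0.0588). Cartilage markers summed to 31.5 to 75.8 CPM over the 9 libraries, and of the 3 tested Acan was called up and Col2a1 down (log2 change -1.90) in injured VEGFR3 fl/fl. Ciliary body markers were at 1.44 to 3.64 CPM, with neither called. The part of these cells in the changes of the 10 genes was not tested.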

How the data were processed

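Irises of 3 groups were sequenced as 9 libraries of 3 pooled irises (single-end reads of 50 bases). Per the labels, the authors' processing used HISAT2 2.0.4 and Bowtie2 2.2.5 with mm10, and DESeq2 1.4.5 for testing. The authors deposited estimated counts per gene, which were not normalized (9.83% to 10.3% of the values in a library are not whole). The program that estimated them is not given in the sources used here. A combined table with identical values was not used. Groups were taken from titles, treatments and descriptions. The genotype tags of VEGFR3 iLECko replicates 2 and 3 name another receptor number and were not followed. P-values measure the spread between these pools.

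Counts were rounded and analysed in R 4.3.3 with edgeR 4.0.16. filterByExpr kept 15010 of 18349 genes. TMM factors lay between 0.90 and 1.09. All 9 libraries were fitted with group as the only term in edgeR's quasi-likelihood framework, and Benjamini-Hochberg adjustment ran across the tested genes. Standard errors came from the F statistic. CPM are on the TMM scale. Approximate TPM used the longest GENCODE M21 transcript of each gene, found for 97.6% of genes. The chi-square per degree of freedom between replicates was 5.13 to 76.2, beyond counting noise. Scripts were first tested on simulated data. Alternatives were RLE, upper quartile and library size scaling, no filter, approximate TPM of at least 2, DESeq2 1.42.0, 6 libraries, no fold threshold, a replicate block, a Y-linked covariate and leaving out each library. Text names all 10 genes and, of each related list, partners, relatives and receptors with at most the 3 largest called changes in each direction. The 10 genes, the lists and the alternatives were chosen with earlier results of these data known. Promoter sequences and positions are from RefSeq (GRCm38.p6, the build of mm10). The protein motif search of the design was not run, and a further result on the TGF-β list is not reported here. Overlap of groups was judged on CPM, and floors of 3 counts cover counting error only.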

Additional observations from a re-analysis of the deposited data

How the results depend on the processing

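The number of the 10 genes called in injured VEGFR3 fl/fl against Sham was 9 under every alternative run, all up. In injured VEGFR3 iLECko against Sham it was 9 or 10, the 10th being Vcan. Between the injured groups it was 0 (called in either direction or up) in all but 1 alternative. Over the fits that each left out 1 library it ranged from 0 to 1, the 1 being Postn without injured VEGFR3 fl/fl replicate 3. Of 540 single log2 fold changes under alternatives, 7 changed sign, all of differences that were not called, and 4 newly passed the threshold. With the Y-linked covariate, differences between the injured groups were -0.068 for Fn1, -0.033 for Postn and -0.064 for Tgfbi. Leaving out single libraries gave ranges between the injured groups of -0.055 to 0.32 for Fn1, -0.048 to 0.33 for Thbs1 and -0.0064 to 0.49 for Cthrc1, and -0.74 to 0.14 for Vcan in injured VEGFR3 fl/fl against Sham. The cause of these shifts was not tested. Scaling by library size alone moved the median log2 change of all genes after CAI to -0.16 and changed no call of the 10 genes. Over all genes, the 156 calls between the injured groups became 633 by DESeq2, 24 with the replicate block, 2 with the Y-linked covariate, 0 with only the 6 libraries and 0 to 281 with 1 library left out.

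Libraries with the same replicate number did not deviate together: the correlations of their deviations were 0.13, -0.39 and -0.06 between the injured groups. The numbers therefore gave no pairing, and with a replicate block (the number as a term) 9, 0 and 9 of the 10 genes were called in the 3 comparisons, as without it. Depth did not limit these genes, with at least 216 counts in every library. Precision is limited by 3 pools a group.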
